A study of Ovis aries with 2 samples.

Results

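Of the 23141 genes in the count tables, 10 genes that cells switch on in response to type I interferon are described here: ISG15, IFI6, IFIT1, IFIT3, MX1, MX2, IRF7, RSAD2, IFI44 and ISG20. They were taken by symbol. The feature table spells 9 of the 10 as given, and IFIT1 stands there under the placeholder LOC101102194, which was matched by its NCBI Gene identifier. The other identifiers are 443057 for ISG15, 101106828 for IFI6, 101121899 for IFIT3, 443146 for MX1, 780441 for MX2, 101103683 for IRF7, 101115013 for RSAD2, 101110473 for IFI44 and 101116513 for ISG20. Reads came from the anterior lobe of the pituitary of Hu sheep, digested with collagenase and profiled by droplet single-cell RNA sequencing, in a study of the gland around puberty. No treatment is named in the labels. One group was 3 months old and the other 6 months old, and each age had 1 library. The labels name neither the sex nor the number of the animals, and with 1 library per age, age and library cannot be told apart. All differences below are therefore between these libraries, with no replicate check, no test and no p-value.

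Type I interferons are secreted by cells that sense foreign nucleic acid. They bind the receptor IFNAR1/IFNAR2, whose kinases JAK1 and TYK2 pass the signal to the complex ISGF3, which contains IRF9 and switches on interferon-stimulated genes. The products act at many steps of viral growth, and many cells keep a low level of them without infection. Interferon gamma acts through another receptor, IFNGR1/IFNGR2, and its target genes overlap with those of type I interferon only in part.

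Unique molecular identifiers (UMIs) were counted in 15448 cells at 3 months and 12633 cells at 6 months, from libraries with 142479651 and 175239612 UMIs and a median of 4361 and 7434 UMIs per barcode. Between the libraries, 81 barcode sequences were shared. Cells fell into 30 clusters without use of interferon genes, and clusters were named from marker genes as "like" a cell class. There were 9 classes with at least 20 cells in each library. Stem- or folliculostellate-like cells (2611 at 3 months and 2162 at 6 months), lactotroph-like cells (2208 and 3547) and endothelial-like cells (1876 and 438) were the most numerous at 3 months. The others were macrophage-like (1230 and 1060), somatotroph-like (1206 and 487), gonadotroph-like (1176 and 260), fibroblast-like (145 and 29), T- or NK-like (110 and 1011) and proliferating cells (108 and 45). Corticotroph-like cells (214 and 7) and B- or plasma-like cells (19 and 143) were too few in 1 library to be compared, and 10 clusters stayed unnamed. The share of hormone transcripts in endothelial-like and immune-like cells, which should lack them, was 8.56% of that in all cells at 3 months and 13.4% at 6 months. These percentages were taken as the amount of free RNA in the droplets. Levels are CPM, that is UMIs scaled to a common library total, and their 95% intervals cover counting error only.

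In the whole gland the genes were mostly lower in the 6-month library. Summed over all kept cells, the 10 genes stood at 1952 CPM at 3 months and 521.0 CPM at 6 months. At least 2-fold lower were 6 of the 10 genes (ISG15, IFI6, IFIT1, MX1, MX2 and IFI44), against 8.87% of all genes measured. ISG20 was 2-fold higher, as were 5.62% of all genes. The median log2 ratio of 6 over 3 months was −1.15 for the 10 genes and 0.00 for all genes (−0.003 before rounding). Values over all cells also reflect the cell makeup. Lactotroph-like cells, which had low levels of most of the genes, were 14.3% of the cells at 3 months and 28.1% at 6 months. Endothelial-like cells, with higher levels, were 12.1% and 3.47%, and T- or NK-like cells 0.712% and 8.003%. The part of the makeup in the difference was not tested. The classes are therefore taken one by one.

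**Figure D1:**
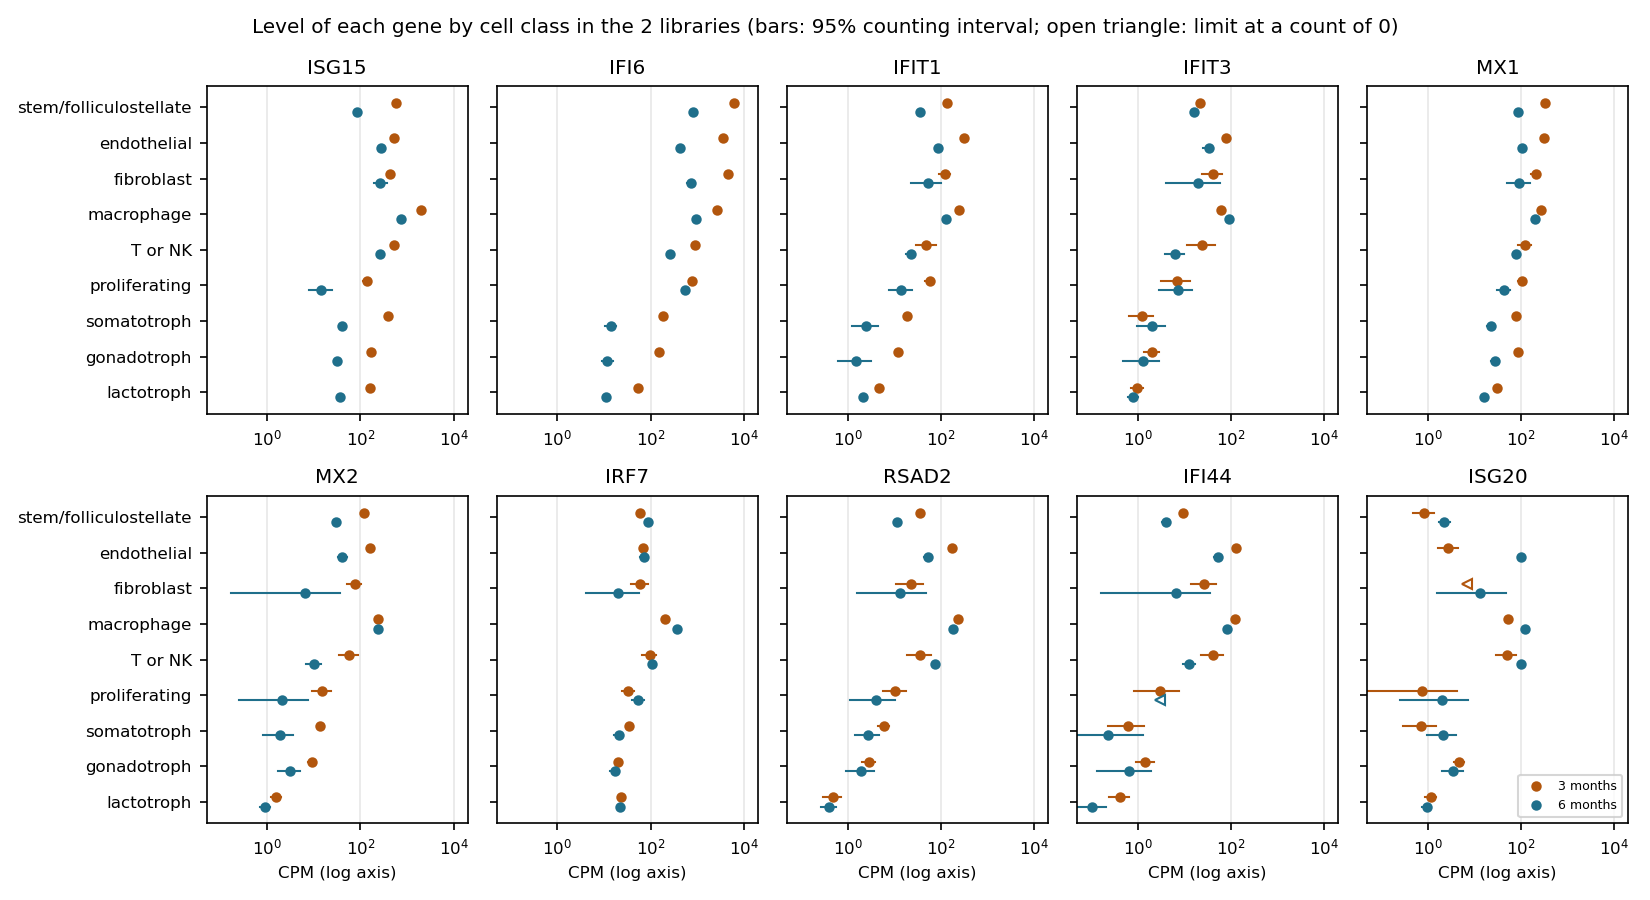
CPM (log axis) of the 10 genes in 9 cell classes, each named by likeness to its markers, at 3 months (brown) and 6 months (blue), with 95% Poisson intervals and an open triangle where a count was 0. IFI6 in stem-like cells is at 6138 and 817.1 CPM, and ISG20 in endothelial-like cells moves the other way, from 2.77 to 99.5 CPM.

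ISG15 encodes a ubiquitin-like protein that is attached to other proteins. Macrophage-like cells had the highest level in both libraries, 1967 CPM at 3 months and 755.8 CPM at 6 months. At 3 months stem-like cells (577.0 CPM), T- or NK-like cells (518.7 CPM) and endothelial-like cells (516.5 CPM) came next, with overlapping intervals between neighbours in this order. At 6 months the order was different, because stem-like cells were at 83.8 CPM, below endothelial-like (272.2 CPM), fibroblast-like (268.8 CPM) and T- or NK-like cells (262.6 CPM). The gene was 6.88-fold lower in stem-like cells (log2 ratio −2.78, interval −2.85 to −2.72) and 9.46-fold lower in somatotroph-like cells, from 383.1 to 40.5 CPM. ISG15 was at least 2-fold lower in 6 of 9 classes. In endothelial-like, fibroblast-like and T- or NK-like cells the log2 ratio lay between −0.98 and −0.65.

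IFI6 encodes a small hydrophobic membrane protein of mitochondria and the endoplasmic reticulum. It was the most abundant of the 10 genes in stem-like cells, where 115896 UMIs at 3 months gave 6138 CPM and 20833 UMIs at 6 months gave 817.1 CPM. At 3 months fibroblast-like cells followed, and then endothelial-like and macrophage-like cells. Fibroblast-like cells were at 4530 and 740.7 CPM, endothelial-like cells at 3604 and 435.4 CPM and macrophage-like cells at 2721 and 944.1 CPM. Among these 4 classes no interval at 3 months overlapped the next. At 6 months macrophage-like cells were highest, the intervals of stem-like and fibroblast-like cells overlapped, and proliferating cells (555.6 CPM) were above endothelial-like cells. IFI6 was 2-fold lower in 8 of 9 classes, with a log2 ratio of −3.05 in endothelial-like cells. Proliferating cells were the exception, at 786.2 and 555.6 CPM (log2 ratio −0.50). After each cell was thinned to 2000 UMIs, 83.4% of stem-like cells at 3 months and 68.3% at 6 months held an IFI6 UMI (88.1% and 88.8% without thinning). At such levels most cells are bound to hold a UMI, so the share says little about the size of the difference. Free RNA alone would give 22.0% and 5.42%.

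IFIT1 and IFIT3 encode proteins with tetratricopeptide repeats that bind foreign RNA, and they are neighbours in the ARS-UI_Ramb_v3.0 sheep assembly, between IFIT2 and IFIT5. IFIT1 was 2-fold lower in 8 of 9 classes, for example from 310.4 to 86.6 CPM in endothelial-like cells and from 133.9 to 35.5 CPM in stem-like cells. In macrophage-like cells it was at 249.0 and 132.6 CPM (log2 ratio −0.91). IFIT3 was 2-fold lower in 3 of the 8 classes with enough UMIs. It stood at 78.7 and 33.3 CPM in endothelial-like cells, but at 21.9 and 16.1 CPM in stem-like cells and at 60.8 and 90.1 CPM in macrophage-like cells. Of the flanking genes in stem-like cells, IFIT2 was at 18.01 and 22.1 CPM (log2 ratio 0.30, interval 0.10 to 0.49), and IFIT5 at 64.0 and 40.8 CPM (−0.65). Reads that match several such similar genes could be left out or misassigned by the counting, so single values in this cluster are uncertain.

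MX1 and MX2 encode dynamin-like GTPases that block viruses inside the cell, and they also lie side by side. MX1 was 2-fold lower in 6 of 9 classes, from 322.9 to 87.2 CPM in stem-like cells and from 303.9 to 103.0 CPM in endothelial-like cells. In macrophage-like cells it differed less, at 262.1 and 196.4 CPM. MX2 was 2-fold lower in 7 of 9 classes, from 158.8 to 40.8 CPM in endothelial-like cells and from 119.0 to 29.8 CPM in stem-like cells. Its macrophage-like level was 234.7 and 241.0 CPM, a log2 ratio of 0.04 with an interval of −0.07 to 0.15. The MX genes also resemble each other, with the same uncertainty.

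RSAD2, or viperin, makes a nucleotide that ends viral RNA chains. At 3 months it was at 239.8 CPM in macrophage-like cells and 178.8 CPM in endothelial-like cells, against 36.6 CPM in stem-like cells and at most 6.02 CPM in the 3 endocrine classes. It was 3.39-fold lower at 6 months in endothelial-like cells (52.8 CPM) and 3.20-fold lower in stem-like cells (11.4 CPM). In T- or NK-like cells it was higher at 6 months, at 75.9 against 35.5 CPM, which rests on 13 UMIs at 3 months and 253 at 6 months. IFI44, a gene of poorly known function, was counted mostly in endothelial-like cells (129.0 and 54.2 CPM) and macrophage-like cells (125.0 and 81.3 CPM). It was 2-fold lower in 5 of the 6 classes with enough UMIs. RSAD2 lies beside CMPK2, and IFI44 beside IFI44L. CMPK2 stood at 32.2 and 16.5 CPM in stem-like cells and IFI44L at 7.10 and 3.45 CPM. Of IFIT2, IFIT5, CMPK2 and IFI44L, only IFIT2 had a higher level at 6 months in stem-like cells.

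ISG20 encodes an exonuclease that degrades RNA, and it was the gene most often higher at 6 months. In endothelial-like cells it was at 2.77 CPM (18 UMIs) at 3 months and at 99.5 CPM (200 UMIs) at 6 months, which is 36.0-fold higher with a log2 ratio of 5.17 (interval 4.47 to 5.95). Few cells carried it even then. At 2000 UMIs, 22 of 359 cells had a UMI at 6 months (6.13%, Clopper-Pearson 3.88% to 9.13%; 11.4% without thinning) and 3 of 1377 cells at 3 months (0.218%; 0.480% without thinning), where free RNA alone would give 0.427% and 0.0780%. Macrophage-like cells were at 52.7 and 119.0 CPM, and T- or NK-like cells at 49.1 and 98.7 CPM. In stem-like cells the levels were 0.847 and 2.28 CPM, and free RNA would give 0.390 and 2.14 CPM. With free RNA subtracted the direction in stem-like cells turned (log2 ratio −1.29). That value rests on the few UMIs left of 16 at 3 months and 58 at 6 months. ISG20 was 2-fold lower in 0 and 2-fold higher in 4 of the 6 classes with enough UMIs.

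IRF7 encodes a transcription factor that drives the genes of type I interferons and is itself induced by them. It was 2-fold lower in 1 of 9 classes only, fibroblast-like cells, where it rested on 26 and 3 UMIs. Macrophage-like cells had the highest level among the compared classes, 201.1 and 371.6 CPM (log2 ratio 0.89, interval 0.78 to 0.99). In stem-like cells IRF7 was at 59.1 and 86.2 CPM and in endothelial-like cells at 68.9 and 71.7 CPM. B- or plasma-like cells, which are too few at 3 months for a comparison, stood at 302.9 CPM at 6 months.

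**Figure D2:**
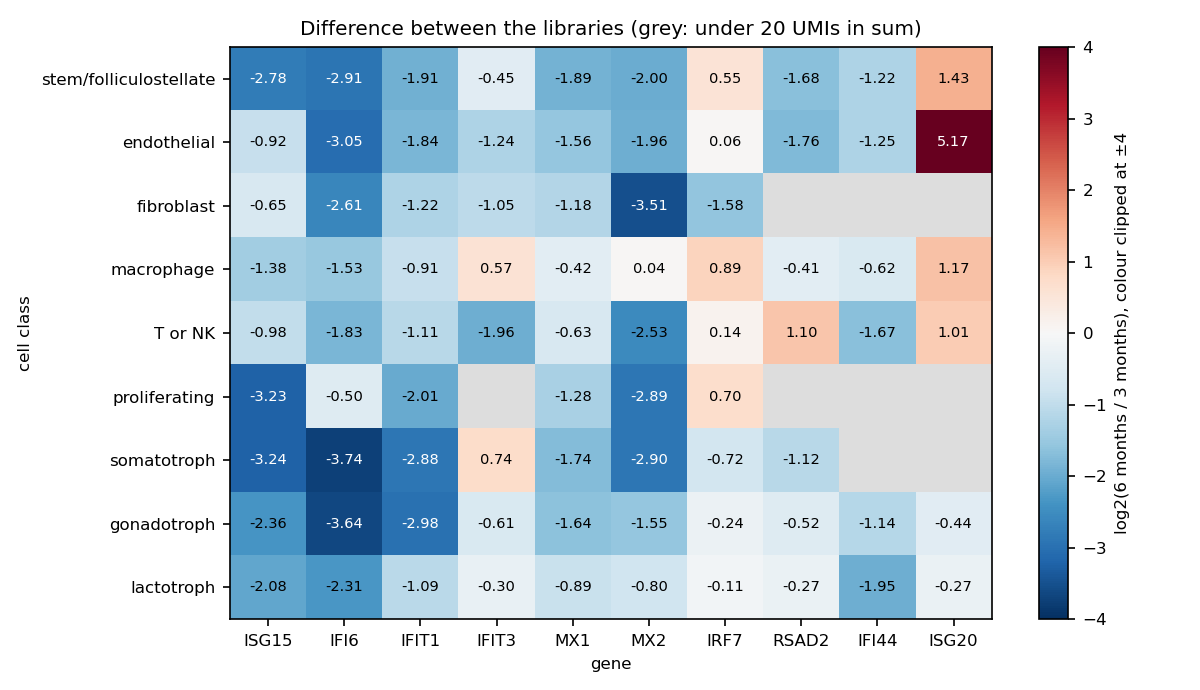
Log2 ratio of the 6-month over the 3-month library for each gene (columns) in each cell class (rows), with grey where fewer than 20 UMIs were counted in sum. Most cells are below 0, the IRF7 column lies between −1.58 and 0.89, and ISG20 is at 5.17 in endothelial-like cells.

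Counted by class, stem-like and endothelial-like cells had the largest number of genes lower, but fewer genes were measured in some other classes. As a share of the genes measured, fibroblast-like cells (6 of 7) and somatotroph-like cells (6 of 8) were above them. Somatotroph-like cells also had the lowest median log2 ratio, −2.31. In stem-like cells 7 of 10 genes were 2-fold lower at 6 months, against 3.65% of all genes measured in that class, and 1 was higher, against 6.18%. The median of the 10 genes was −1.78 and that of all genes 0.00 (0.005 before rounding). Endothelial-like cells had 7 of 10 lower (background 5.82%) and 1 higher (5.29%), with a median of −1.40. In T- or NK-like cells 5 of 10 were lower (7.05%), and RSAD2 and ISG20 were higher (15.8%). On UMI totals without TMM these were at log2 ratios of 0.78 and 0.69, under 2-fold. Macrophage-like cells had 2 of 10 lower, ISG15 and IFI6, against 7.66% of all genes, and 1 higher, against 6.95%, with a median of −0.41. The number lower was 4 with doublets kept. Fibroblast-like cells had 6 of 7 measured genes lower, beside a high background of 17.8% and only 29 cells at 6 months. On totals without hormone genes 3 were lower. In proliferating cells 4 of 6 measured genes were lower (4.46%).

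The hormone-producing classes had low levels but mostly the same direction. Somatotroph-like cells had 6 of 8 measured genes 2-fold lower (background 4.4%), with a median of −2.31. Gonadotroph-like cells had 6 of 10 lower (8.78%) and lactotroph-like cells 4 of 10 (6.17%). The lactotroph-like number was 2 of 9 with the looser and 7 of 10 with the stricter filter on cells. Cluster 8 held 78.5% of lactotroph-like cells at 3 months and cluster 11 held 91.0% at 6 months. For gonadotroph-like cells these were cluster 15 (72.9%) and cluster 26 (58.1%). These levels lay near what free RNA would give for part of the genes. In lactotroph-like cells IFI6 was at 53.7 and 10.8 CPM, below the 124.3 and 27.8 CPM expected from free RNA, and 6 of the 10 genes lay at or below that level at 3 months. Of the genes counted as lower in these cells, only ISG15 lay above it at 3 months. At 6 months IFI6 and IFI44 lay at or below it in gonadotroph-like and somatotroph-like cells too. So did MX2 in somatotroph-like and IFIT1 in gonadotroph-like cells. ISG15 was above the free RNA level in all 9 classes in both libraries, with 156.6 CPM against 28.7 CPM in lactotroph-like cells at 3 months and 37.1 against 13.4 CPM at 6 months. MX1 and IRF7 were above it in all 9 classes too. IFIT1 in lactotroph-like cells (4.70 and 2.20 CPM) turned to a log2 ratio of 0.77 with free RNA subtracted. The estimate assumes that free RNA has the makeup of all cells together. It is also 1 value per library, pooled over endothelial-like and immune-like classes that differ. Hormone genes held 1.106% (B- or plasma-like) to 2.85% (endothelial-like) of their UMIs at 3 months. At 6 months they held 1.629% (macrophage-like) to 9.823% (B- or plasma-like). A level far below the free RNA level, as for IFI6 in lactotroph-like cells, means that the estimate was too high there.

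In stem-like, macrophage-like, lactotroph-like and gonadotroph-like cells, different clusters held most cells of each library, and part of the endothelial-like cells at 6 months were of a cluster with no cell at 3 months. Single clusters were therefore compared as well. Stem-like cells came from clusters 3, 10 and 6. Cluster 3 held 71.0% of them at 3 months and 29.6% at 6 months, and cluster 10 held 15.6% and 66.7%. IFI6 was at 7528 and 713.7 CPM in cluster 3, 4585 and 846.4 CPM in cluster 10, and 2434 and 304.0 CPM in cluster 6. IFI6 is among the 10 leading genes of cluster 3, although it was not used to form it. ISG15 was likewise lower at 6 months in each of these clusters, with log2 ratios of −2.44, −2.90 and −3.65. Thus the difference in stem-like cells was also present within each cluster.

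Cluster 2 stood apart. It stayed unnamed, with 10 of 13 stem-like markers above the rest but also NOTCH3, a mural marker, among its leading genes, and it held 2935 cells at 3 months and 293 at 6 months. IFI6 was at 837.8 CPM there at 3 months, against 7528 CPM in cluster 3 of the same library, and at 903.7 CPM at 6 months. The log2 ratio of IFI6 was 0.11 (interval 0.02 to 0.20). Of its 9 measured genes 1 was 2-fold lower, ISG15 (79.5 and 25.8 CPM), against 5.11% of all genes in that cluster. The other large unnamed cluster, cluster 20, was nearest to lactotrophs and had 6 of 7 measured genes lower (4.01%), with ISG15 at 393.0 and 42.9 CPM.

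Macrophage-like cells split by library. Cluster 5 held 90.7% of them at 3 months and cluster 9 held 97.6% at 6 months. ISG15 was 2.602-fold lower over the class, yet within cluster 9 it was at 845.5 and 831.0 CPM (log2 ratio −0.03, interval −0.17 to 0.12), and within cluster 5 at 2217 and 1694 CPM, the latter from 25 cells. The ISG15 difference of the class was thus not present at that size within either cluster. IFI6 was lower within both, at 3629 and 1054 CPM in cluster 9 and at 2786 and 1549 CPM in cluster 5. In cluster 9, IRF7 (156.4 and 427.8 CPM), RSAD2 (100.4 and 204.4 CPM) and ISG20 (67.6 and 136.8 CPM) were at least 2-fold higher at 6 months. RSAD2 and ISG20 were only just past 2-fold (log2 ratios 1.03 and 1.02). IFIT1 was 2-fold lower there, at 318.5 and 150.4 CPM. The share of all genes past 2-fold was not taken for this cluster.

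Endothelial-like cells at 3 months were all of cluster 0, while at 6 months 269 cells were of cluster 0 and 169 of cluster 29, which had no cell at 3 months. Within cluster 0 IFI6 was at 3560 and 573.4 CPM, and ISG15 at 510.2 and 360.8 CPM. ISG20 was at 2.73 and 143.2 CPM there. Cluster 29 held 2 of the 200 ISG20 UMIs, and on UMI totals its IFI6 level was 131.7 CPM and its ISG15 level 77.1 CPM.

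**Figure D3:**
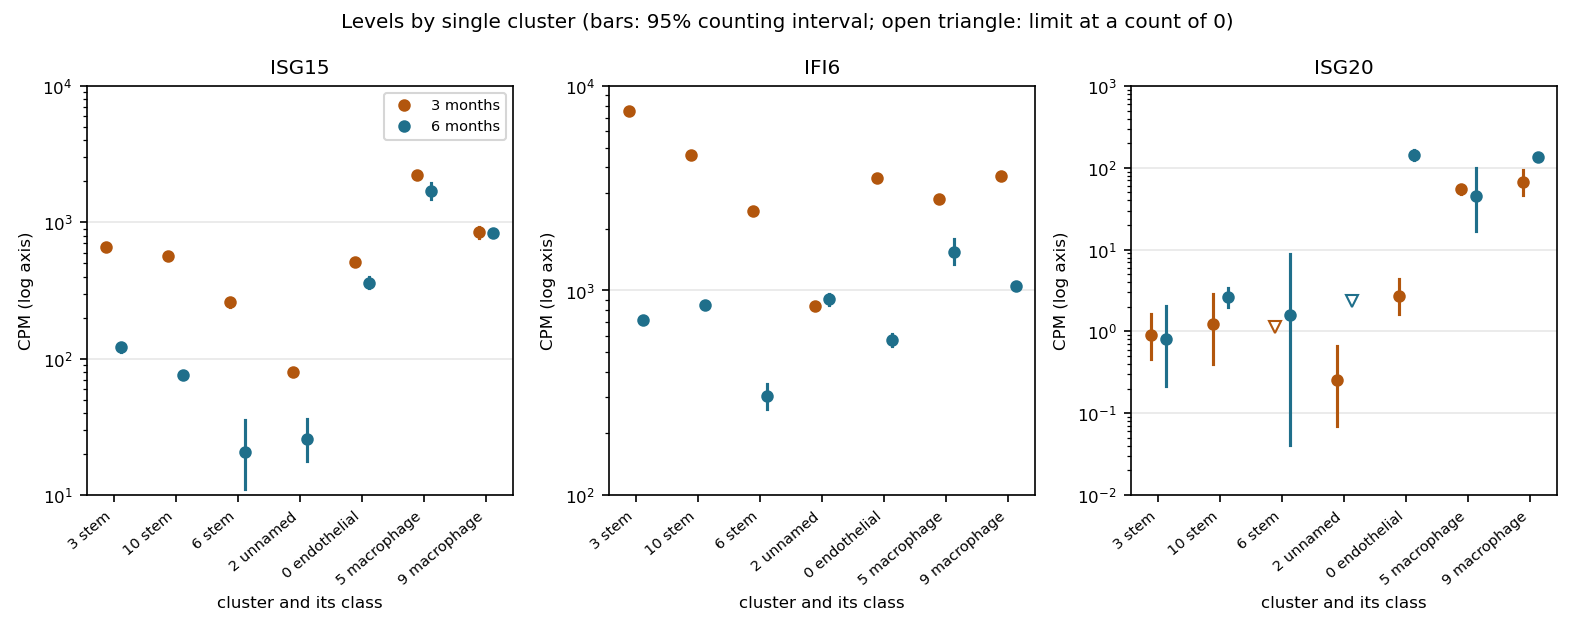
CPM (log axis) of ISG15, IFI6 and ISG20 in single clusters at 3 months (brown) and 6 months (blue), with 95% Poisson intervals and open triangles where a count was 0. IFI6 in cluster 2 is at 837.8 and 903.7 CPM, ISG15 in cluster 9 at 845.5 and 831.0 CPM, and ISG20 in cluster 0 at 2.73 and 143.2 CPM.

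To ask how many cells held several of the genes at once, each cell was thinned to 2000 UMIs and shallower cells were left out, 2254 at 3 months and 1018 at 6 months. A UMI of 3 or more of the 10 genes was found in 22.1% of cells at 3 months (95% Clopper-Pearson 21.4% to 22.8%) and 10.1% at 6 months (9.56% to 10.7%), or 37.4% and 23.6% without thinning. This cut marks a range and not a cell type, since 1261 cells at 3 months held exactly 3 of the genes and 1852 exactly 2. In stem-like cells the share was 42.2% at 3 months and 9.38% at 6 months (66.8% and 40.8% without thinning), and 48.8% and 12.7% within cluster 3. Endothelial-like cells were at 50.6% and 19.5% (56.5% and 34.9% without thinning), with 29.9% at 6 months in cluster 0 and 2.90% in cluster 29. T- or NK-like cells were at 29.3% and 12.3% (33.6% and 23.8%). Left out as too shallow were 83 and 30 stem-like, 499 and 79 endothelial-like, and 28 and 167 T- or NK-like cells. Macrophage-like cells had the highest share at 6 months, 58.7% against 52.9% at 3 months (79.8% and 64.8% without thinning). Its order turned when cells were thinned to 1000 UMIs (a difference of −4.51 percentage points), with doublets kept (−4.31) and at Leiden resolution 0.5 (−3.38). In the endocrine classes such cells were rare, at 8.18% and 0.670% of somatotroph-like, 4.93% and 0.412% of gonadotroph-like, and 1.71% and 0.431% of lactotroph-like cells. Without thinning these were 26.3% and 3.08%, 32.2% and 10.4%, and 22.6% and 4.91%.

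**Figure D4:**
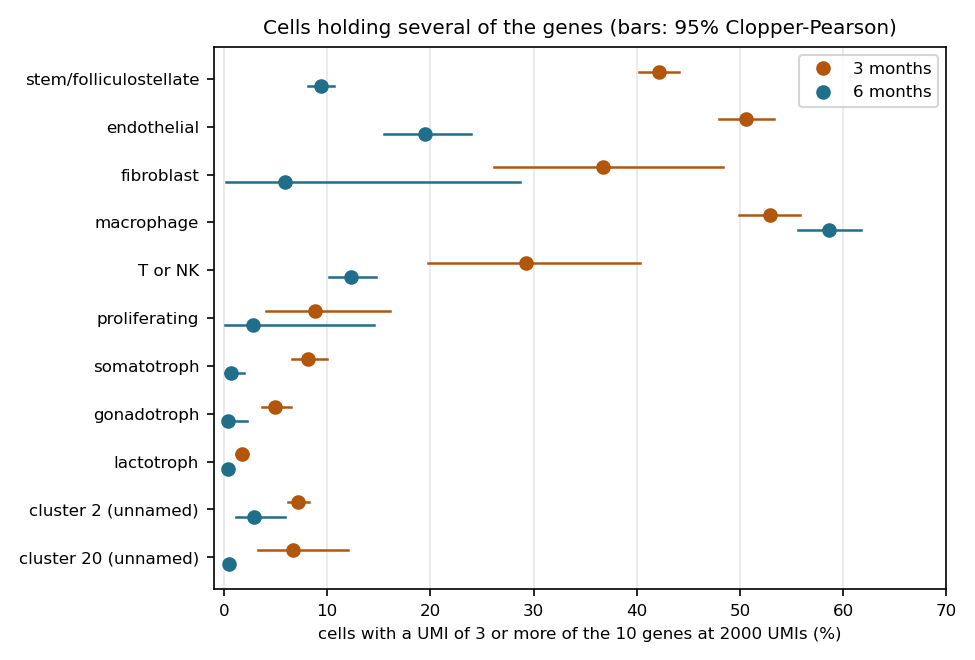
Percentage of cells with a UMI of at least 3 of the 10 genes after thinning to 2000 UMIs, by cell class and for clusters 2 and 20, at 3 months (brown) and 6 months (blue), with 95% Clopper-Pearson intervals. Stem-like cells stand at 42.2% and 9.38%, macrophage-like cells at 52.9% and 58.7%.

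Over all cells, 0 of the 6 receptor genes were 2-fold apart, against 8.87% of all genes lower and 5.62% higher, with a median log2 ratio of 0.01. IFNAR1 was at 21.9 and 21.8 CPM, IFNAR2 at 5.32 and 7.71, IFNGR1 at 29.1 and 23.6, IFNGR2 at 41.5 and 47.1, IFNLR1 at 2.20 and 2.18 and IL10RB at 9.98 and 10.1 CPM. Of the 5 genes for kinases and ISGF3, 0 were 2-fold apart over all cells, and the largest difference among them was in IRF9, at 96.3 and 62.1 CPM (log2 ratio −0.63). In stem-like cells IRF9 was at 270.3 and 138.4 CPM (−0.96). Gonadotroph-like cells differed from the gland as a whole, with 3 of these 5 genes lower, against 8.78% of all genes, and a median of −1.25. IRF9 was at 98.3 and 36.3 CPM there, and TYK2 at 4.71 and 1.98 CPM from 68 and 9 UMIs. Of 16 measured sensors and adaptors of foreign nucleic acid, 0 were lower and 2 higher over all cells (8.87% and 5.62% of all genes), the Toll-like receptors TLR9 (0.131 and 0.799 CPM) and TLR8 (2.24 and 5.69 CPM). In stem-like cells 2 of 12 were lower (3.65%) and 2 higher (6.18%). The lower ones were DDX58 (19.5 and 8.12 CPM), the sensor RIG-I, and DHX58 (17.3 and 5.69 CPM), its relative.

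Ligands were scarce. Of the 9 ligand genes looked for, 3 were in the feature table under those symbols. IFNE had 8 UMIs over all cells at 3 months and 6 at 6 months, and IFNK 45 and 37. IFNG, the gene of interferon gamma, had 26 and 338 UMIs, or 0.190 and 2.31 CPM (log2 ratio 3.60). Most of these, 19 and 307 UMIs, were in T- or NK-like cells, which were more numerous at 6 months. Within them IFNG was at 51.9 and 92.1 CPM, a log2 ratio of 0.83 (interval 0.16 to 1.58). The table also lists the interferon genes IFN1, IFNT5 and IFNT6, which were looked up after the list had been made, and each had 0 UMIs in both libraries.

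Of the enzymes that attach and remove ISG15, 3 of 6 were 2-fold lower in stem-like cells, against 3.65% of all genes. They were the conjugating enzyme UBE2L6 (37.3 and 17.6 CPM), the ligase HERC6 (56.0 and 23.3 CPM) and USP18 (21.0 and 7.61 CPM), which takes ISG15 off its targets and damps the receptor. UBA7, the activating enzyme, was at 12.02 and 6.71 CPM (log2 ratio −0.84) and TRIM25 at 31.1 and 31.7 CPM. Over all cells 1 of 6 was lower, HERC5 (0.788 and 0.375 CPM). Of 7 negative regulators, 0 were lower and 1 higher over all cells, SOCS1 (25.4 and 51.4 CPM), which blocks the receptor kinases, against 8.87% and 5.62% of all genes. Its relative SOCS3 was at 218.2 and 224.9 CPM over all cells, but at 196.6 and 565.7 CPM in macrophage-like and 48.5 and 10.1 CPM in gonadotroph-like cells. Of 42 other interferon-stimulated genes listed, 30 were in the table, and of these 3 were lower and 4 higher over all cells, with a median of −0.21. The share of all genes was 8.87% lower and 5.62% higher. In stem-like cells 6 of 30 were lower (3.65%) and 1 higher (6.18%), and in gonadotroph-like cells 11 of 28 were lower (8.78%), with a median of −0.78. Over all cells IFITM3, a membrane protein that hinders viral entry, was at 57.0 and 14.8 CPM, XAF1 at 41.6 and 17.3 CPM and PLAC8 at 15.4 and 43.9 CPM. Of 10 housekeeping genes 0 were 2-fold apart.

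Genes listed here as interferon gamma-dominated were mostly higher at 6 months. Which signal set their levels was not tested. Of 19 listed, 14 were in the table, and over all cells 10 of the 14 were 2-fold higher at 6 months, against 5.62% of all genes, and 0 were lower. Some genes, CXCL10 and SOCS1 among them, stand on 2 of the lists. The chemokines CXCL9, CXCL10 and CXCL11, which draw in T cells, were at 6.53 and 282.0, 18.3 and 263.9, and 0.891 and 41.4 CPM. IDO1, a tryptophan-degrading enzyme, was at 0.212 and 22.8 CPM. Classes differed in how far this held. In endothelial-like cells 10 of 14 were higher (background 5.29%), with CXCL9 at 3.84 and 3050 CPM, and within cluster 0 CXCL9 was at 3.80 and 4427 CPM. Macrophage-like cells had 8 of 14 higher (6.95%), with CXCL10 at 376.2 and 2933 CPM. Stem-like cells had 9 of 14 higher (6.18%), with the adhesion molecule ICAM1 at 36.1 and 173.5 CPM and the peptide transporter TAP1 at 36.2 and 97.3 CPM. In stem-like cells the median log2 ratio was 1.80 for this list and −1.78 for the 10 genes, and in endothelial-like cells 2.73 and −1.40. In the endocrine classes the list's median was 1.11 in lactotroph-like, 0.42 in somatotroph-like and 0.11 in gonadotroph-like cells, where the transcription factor IRF1 was at 47.9 and 27.1 CPM. ISG20 was higher at 6 months, as was the median of this list, in endothelial-like, macrophage-like and T- or NK-like cells. In lactotroph-like and gonadotroph-like cells ISG20 was not higher, with log2 ratios of −0.27 and −0.44 beside list medians of 1.11 and 0.11. In stem-like cells its direction depended on the subtraction of free RNA. A link between ISG20 and this list was not tested.

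**Figure D5:**
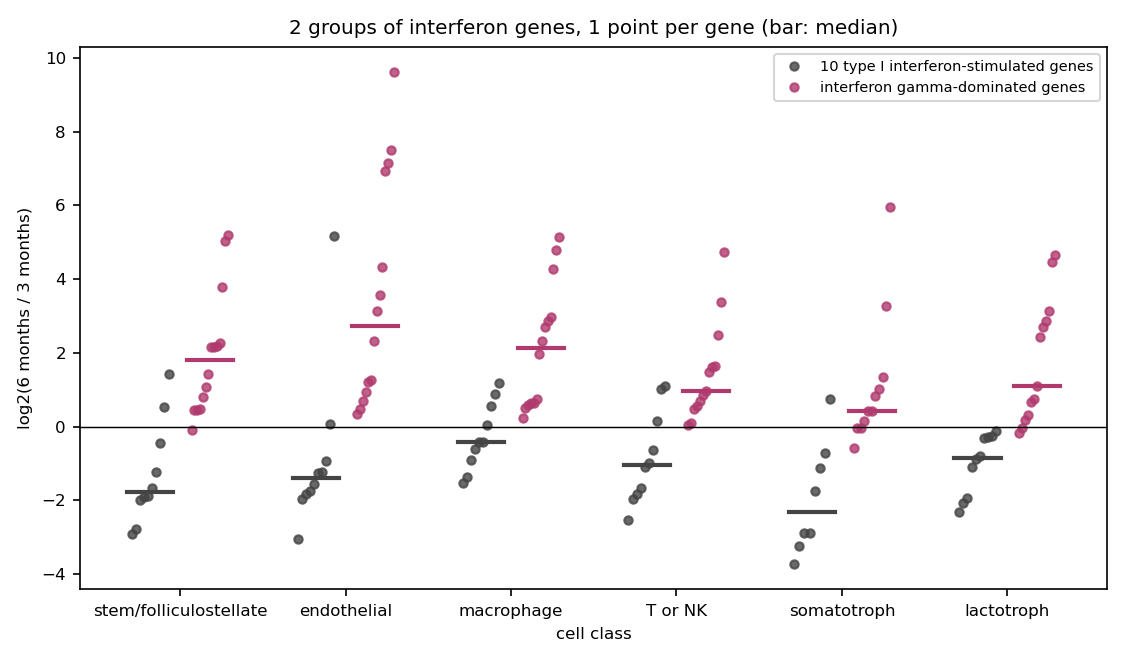
Log2 ratio of the 6-month over the 3-month library for the 10 genes (grey) and the interferon gamma-dominated genes (pink) in 6 cell classes, 1 point per gene with at least 20 UMIs and a bar at the median. In stem-like cells the medians are −1.78 and 1.80.

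Across 18 points (each a class in 1 library, with at least 50 cells), the genes followed each other to different degrees. These correlations are descriptions, since the points share their library and depth. The log level of RSAD2 correlated most with the mean of the other 9 (Pearson r = 0.951), then MX2 (0.949) and IFIT3 (0.935). IRF7 (0.699) and ISG20 (0.396) were lowest. Of the 10 other genes whose pattern was most like the mean of the group, 6 have a name: UBE2L6 (r = 0.949), CTSA (0.947), IFI44L (0.945), DUSP1 (0.939), ARHGEF2 (0.936) and FES (0.935). UBE2L6 and IFI44L are themselves interferon-stimulated. DUSP1, an early-response phosphatase that cell dissociation is known to induce, was at 702.3 CPM over all cells at 3 months and 372.9 CPM at 6 months, and the part of dissociation in the results was not tested.

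Macrophage markers were also read in the other classes. In stem-like cells the 10 markers in the table summed to 59.7 CPM at 3 months and 75.0 CPM at 6 months (1 at 0 in each), against 22580 and 27030 CPM in macrophage-like cells. In endothelial-like cells they summed to 134.3 and 143.8 CPM, again with 1 at 0. The macrophage marker sum was thus not lower at 6 months in either class. The 11 endothelial markers were lower at 6 months beside the interferon genes in several classes. They summed to 52.3 and 24.8 CPM in stem-like cells (0 at 0 in each), 215.7 and 43.2 CPM in T- or NK-like cells (0 and 1 at 0), 1010 and 249.1 CPM in fibroblast-like cells (1 and 9 at 0) and 251.2 and 17.4 CPM in proliferating cells (0 and 6 at 0). In endothelial-like cells they summed to 13070 and 11470 CPM. Their part in the results was not tested. The 12 T- and NK-cell markers in the table summed to 49.0 CPM in endothelial-like cells at 3 months (4 at 0) and 204.5 CPM at 6 months (1 at 0). The part of T and NK cells in the ISG20 level there was not tested.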

How the data were processed

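Droplet single-cell expression was measured in 1 library per age. Raw UMI counts of each gene in each barcode are what the authors deposited. The submitters' processing notes name Cell Ranger 5.0.0, and per the file headers it was 5.0.1. Barcodes and gene names come in other deposited lists without numbers. The genome build is not given in the sources used here. Of 23141 gene identifiers, 22726 (98.2%) matched the ARS-UI_Ramb_v3.0 gene table, used for names and neighbours only.

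A barcode needed 500 genes and 1000 UMIs to be kept. Scrublet marked 920 (5.62%) and 620 (4.68%) as doublets, which were removed. Clustering (scanpy 1.11.5) used 3000 variable genes without hormone, ribosomal protein, mitochondrial and interferon genes, 30 principal components, 15 neighbours and Leiden resolution 1.0. A cluster was named when at least 3 markers were 1.5-fold higher and found in 10% of its cells, their mean log2 fold was at least 0.7, and no other class led. A hormone class also needed its hormone in 50% of cells. The clusters had been seen when this rule was written, and it was the last of several versions, so differences from other groupings may come from the names.

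Counts were summed per class and library and scaled to CPM on TMM library sizes (edgeR 4.0.16). Levels have exact Poisson intervals, ratios exact conditional binomial intervals and shares Clopper-Pearson intervals, all at 95% and covering counting error only, with all UMIs of a class taken as independent. A gene was measured with at least 20 UMIs over both libraries. A count of 0 was set to 3 counts, and gave no ratio where that lay beyond the other library's level. The ratio intervals and the thinning were tested on simulated counts that held counting error only. Clustering, naming, TMM and the free RNA estimate were not tested in this way.

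All 10 genes are named. Of the other lists, the text names ligands and receptors, and up to 4 genes per list that were 2-fold apart over all cells, ordered by whichever bound of the interval was closer to 0. Other list genes given, such as IRF9 and SOCS3, those given within a class, the neighbours of the 10 genes and the extra ligand genes were chosen after their values were seen. The 10 genes and all lists were chosen with earlier results of these data known. Alternatives covered scaling, cell filters, doublets, resolution, clustering genes, free RNA, thinning, fold and count limits. One gene of the pathway lists is not reported here by itself.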

Additional observations from a re-analysis of the deposited data

Results flagged for a closer look

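RSAD2 was 2-fold apart in opposite directions between cell classes, with intervals that leave out 0. The log2 ratio of 6 over 3 months was 1.10 in T- or NK-like cells, and −1.76 in endothelial-like, −1.12 in somatotroph-like and −1.68 in stem-like cells. The difference between the classes was not tested. The T- or NK-like value rests on 13 UMIs at 3 months and was 0.78 on UMI totals without TMM and 0.60 with the stricter filter on cells.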

How the results depend on the processing

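The 59 ratios past 2-fold were recomputed under each scaling, filter, grouping and free RNA setting that gave a value, 633 values in all. Of these, 631 kept their sign and 596 stayed past 2-fold. The 2 that turned did so with free RNA subtracted: IFIT1 in lactotroph-like cells (0.77) and ISG20 in stem-like cells (−1.29). The IFIT1 value rests on a 3-month count of 0 set to 3, and the ISG20 value on few UMIs left. Counts of 2-fold lower genes moved by over 1.5 times as follows. At 4-fold they were 1 over all cells, 1 in T- or NK-like, 1 in endothelial-like, 2 in fibroblast-like, 3 in gonadotroph-like, 2 in lactotroph-like, 0 in macrophage-like and 2 in stem-like cells. At 1.5-fold the macrophage-like count was 4. With at least 100 UMIs required, fewer genes were measured. The count was then 1 of 6 measured genes in T- or NK-like, 2 of 3 in fibroblast-like and 2 of 3 in proliferating cells. Lactotroph-like cells had 2 of 9 measured genes with the looser filter and 7 of 10 with the stricter filter. They had 7 of 10 at resolution 0.5 and 2 of 5 with free RNA subtracted. Macrophage-like cells had 4 with doublets kept and 4 at resolution 0.5, and fibroblast-like cells 3 of 7 on totals without hormone genes. The share of all genes past the same limit was not taken for these counts. The difference in the share of all cells with 3 or more of the genes was −12.0 percentage points, against −8.50 at 1000 UMIs, −14.6 at 4000 UMIs, −16.3 with 2 genes needed and −7.38 with 4. In macrophage-like cells it was 5.81, and −4.51 at 1000 UMIs, −4.31 with doublets kept and −3.38 at resolution 0.5. The cause of these shifts was not tested. The median of all genes in T- or NK-like cells was 0.18 with TMM and −0.13 on totals, where RSAD2 (0.78) and ISG20 (0.69) were no longer 2-fold higher. On totals that median was 0.21 in somatotroph-like cells, −0.19 in gonadotroph-like cells and −0.23 over all cells, and in fibroblast-like cells it was −0.24 with TMM. Comparing only 1 cluster of a class was an alternative chosen after seeing the data. Lower were 5 of 10 measured genes in cluster 0 (endothelial-like), 7 of 9 in cluster 3 (stem-like) and 2 of 10 in cluster 9 (macrophage-like). In cluster 11 (lactotroph-like) 5 of 9 were lower and in cluster 15 (gonadotroph-like) 6 of 10. The share of all genes past 2-fold was not taken for these clusters. With the stricter filter fibroblast-like cells were too few for a value. No paired analysis was possible because each age has 1 library. Under 20 UMIs, as for IFI44 in somatotroph-like cells, a difference was not detectable at this depth.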

Other observations

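Some small unnamed clusters also held the genes at high levels. Cluster 21, with APOBEC3A, S100A9 and IL1B among its leading genes, had 38 cells at 3 months and 237 at 6 months. ISG15 was at 748.4 and 1301 CPM there, MX2 at 59.6 and 160.1 CPM, and ISG20 at 96.8 and 312.8 CPM, while IFI6 was at 1575 and 355.5 CPM. Cluster 18, which was nearest to macrophages and dendritic cells and stayed unnamed, had 102 and 389 cells and IFI6 at 3123 and 254.8 CPM. Among B- or plasma-like cells (19 and 143), ISG15 was at 632.2 and 156.1 CPM and ISG20 at 119.3 and 80.8 CPM, given as values without comparison.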
